A study of Mus musculus with 4 samples.

Results

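*IL-10* and *TGF-β1* are the regulatory cytokines of an RT-qPCR panel run on mouse lung, 2 of its 98 genes. Both members were taken by name from the gene panel, and their assays were found in the deposited table by the pattern of Ct over the groups. Ct is the threshold cycle, the amplification cycle at which a transcript is detected, and a lower Ct means more template. The question put to these lungs was how inhaled S100A8, a calcium-binding protein of myeloid cells, changes the lung around a growing cancer. All mice were female C57BL/6J, 6 to 8 weeks old, and all received an injection into the lung. HBSS + vehicle mice, the controls, had vehicle injected without cancer cells and inhaled Hank's Balanced Salt Solution (HBSS). S100A8 + vehicle mice had the same injection and inhaled 10 µg of recombinant mouse S100A8. HBSS + LLC mice were implanted with Lewis lung carcinoma (LLC), a single mouse cancer cell line syngeneic to this strain, and inhaled HBSS. S100A8 + LLC mice had the implant and inhaled 10 µg of S100A8. Mice inhaled 3 times, on Day 3, Day 6 and Day 9 after the injection, and whole lungs were taken on Day 10. Where 3 values stand in a row without a group, they belong to S100A8 + vehicle, then to HBSS + LLC and last to S100A8 + LLC, each compared with the controls.

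Each group is 1 averaged Ct per gene, made by the authors from 4 to 5 mice. No SD, n or test between groups can be had from such values, and every difference below is a description of these averages. Whole lung also mixes the RNA of all its cells, so that fewer cells of a type and less RNA per cell cannot be told apart. Over the panel, the median Ct per group lay between 23.35 and 24.815. Of the epithelial and caveolar genes, *AGER*, *RAGE* (another name of the same gene), *MUC1* and *CAV1* were detected in every group at 14.95 to 19.62 cycles. The other gene of this list, *CDH1* (E-cadherin), fell outside that range. It was at 22.38 cycles in the control lungs and at 17.97 to 19.75 in the treated groups.

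IL-10 is secreted by macrophages, dendritic cells, and T and B cells. It signals through its receptor and STAT3, induces SOCS3, and restrains the output of inflammatory cytokines and chemokines by myeloid cells. TGF-β1 is made by many cell types in a latent form, is activated in the tissue and signals through SMAD proteins with SMAD4 as the shared partner. It arrests the growth of epithelial cells through CDKN1A (p21), drives the formation of matrix and dampens T cells, and both cytokines are known in tumors for holding immune responses back.

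An upstream window for 1 of the 2 members was matched in the table of RefSeq windows used here, of GRCm38.p6. The 250 bases before the start of *Tgfb1* lie on the plus strand at chr7:25686752-25687001. They are shown because the transcript under study starts beside them, with each GC box, the letters GGGCGG on either strand (CCGCCC when read on the printed strand), in capitals.
Tgfb1 upstream window: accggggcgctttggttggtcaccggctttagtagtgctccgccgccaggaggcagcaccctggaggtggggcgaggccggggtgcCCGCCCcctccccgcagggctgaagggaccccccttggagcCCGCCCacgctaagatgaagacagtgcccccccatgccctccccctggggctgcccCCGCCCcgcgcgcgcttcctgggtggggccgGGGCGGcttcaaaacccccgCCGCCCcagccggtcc
The window is 75.2% G or C, more than 96.1% of all upstream windows of this length, whose median was 52.4%. It holds 5 GC boxes, which begin 164, 123, 67, 36 and 16 bases before the start, and 32.7% of 32851 windows hold at least 1. A loose NF-κB motif, GGG and CC with 5 free bases between them, matched 7 times on both strands together, with several matches overlapping each other, and 45.8% of windows hold it. The other motifs searched on both strands had no match here. Of all windows, 12.4% hold the TATA box as TATAAA and 33.8% hold the CCAAT box. The AP-1 motif TGANTCA is in 6.75% of windows, the cAMP response motif TGACGTCA in 1.55% and the STAT motif TTCNNNGAA in 7.02%. The SMAD motif CAGACA is in 17.1% and the MAF motif TGCTGA in 16.1%. These matches describe letters in 1 window and say nothing of which factors bind there.

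*IL-10* mRNA was detected late in the control lungs. In HBSS + vehicle it averaged 36.68 cycles, near the cut off of 38. It averaged 30.89 cycles with S100A8 alone, 29.25 with LLC alone and 31.2 with both. The control group stood alone. It was 5.48 cycles above the nearest of the others, which lay within 1.95 cycles of each other. Counted from the highest Ct of the panel, *IL-10* held place 6 in HBSS + vehicle and places 14 to 16 in the other groups. The averages do not show whether single control mice reached the cut off.

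*TGF-β1* mRNA was far easier to detect. It averaged 24.17 cycles in HBSS + vehicle, 22.66 with S100A8 alone, 22.15 with LLC alone and 23.32 with both, in the middle of the panel. The control group again had the highest Ct, but only 0.85 cycles above S100A8 + LLC, and the other groups spanned 1.17 cycles.

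The housekeeping assays moved by amounts that matter for *TGF-β1* and for the comparisons among the treated groups. The study normalised to β-actin and β2M, which the deposited table does not tell apart, and they are called here the first and the second assay. From HBSS + vehicle to HBSS + LLC the first was later by 1.26 cycles, whereas the second was earlier by 1.94 cycles. Fold changes below use the mean of both, and a gene was called when it was past 2-fold. The first assay alone would add 0.64, 1.60 and 0.74 to the log2 fold change of every gene, and the second alone would take off as much, so that calls move with the reference while the genes keep their distances from each other. The panel genes called higher were 48, 61 and 37 with the first and 16, 14 and 16 with the second, and those called lower were 11, 4 and 8 and then 30, 62 and 47. Values with either assay are given for the members where they bear on a call or a direction, and for other genes as examples only.

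**Figure D1:**
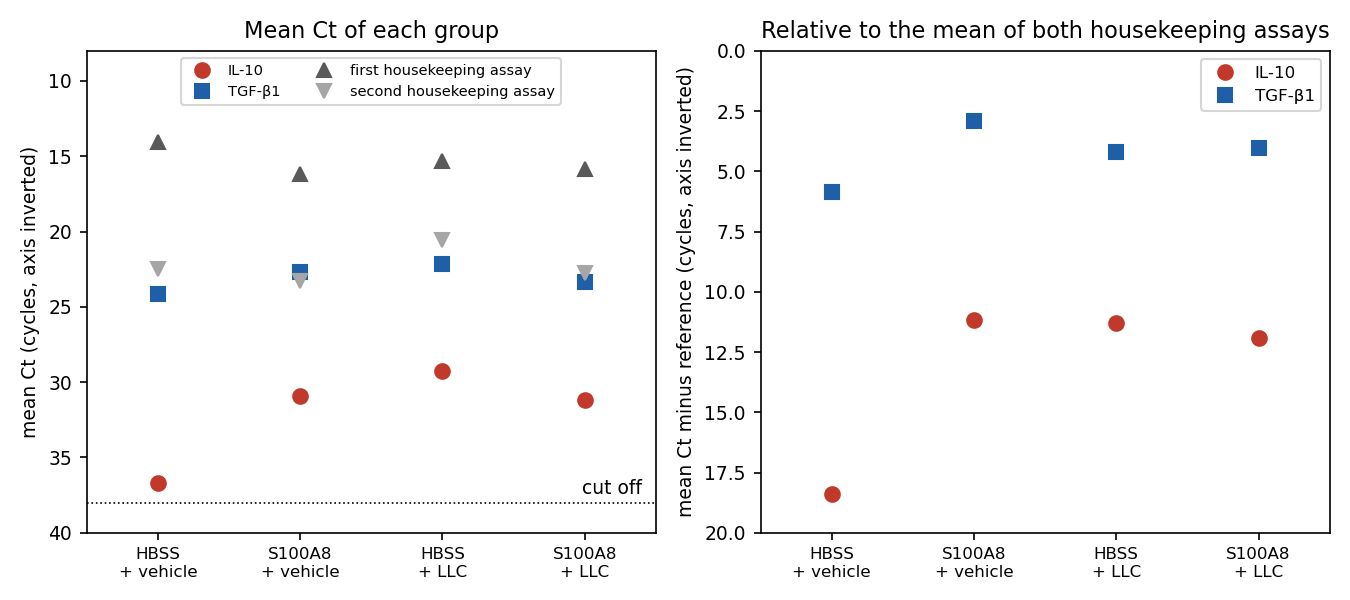
Mean Ct of *IL-10*, *TGF-β1* and both housekeeping assays in each group (left, cycles, inverted so that higher points mean more template) and the members' Ct minus the mean of the housekeeping assays (right, cycles, inverted); each point is 1 group average without error bars. *IL-10* in HBSS + vehicle, at 36.68 cycles, stands well below its other 3 points.

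In S100A8 + vehicle lungs, which held no cancer, *IL-10* was 150-fold higher than in HBSS + vehicle (log2 7.23) and *TGF-β1* was 7.73-fold higher (log2 2.95). Both members were called, in a comparison where 27.8% of 97 genes were called higher. The first housekeeping assay alone gave 234-fold for *IL-10* and 12.0-fold for *TGF-β1*. The second alone gave 96.3-fold and 4.96-fold. *IL-10* stood 3 of 97 in the panel by fold change, between *SOD1* (superoxide dismutase) at 474-fold or more, since its controls were at the cut off, and *PRDX1* (peroxiredoxin) at 132-fold. *TGF-β1* stood 9 of 97, between *IL-18* (an inflammasome-processed cytokine) at 12.2-fold and *GSTM* (a glutathione transferase) at 7.16-fold. Among the 18 cytokines the members held places 1 and 3. In all ranks given here a gene at the cut off of 38 cycles is taken at its bound, so that its true place may differ, as for *IL-4*, here at 4.59-fold or more.

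In HBSS + LLC lungs, *IL-10* was 136-fold higher than in HBSS + vehicle (log2 7.09) and *TGF-β1* was 3.20-fold higher (log2 1.68). Both were past 2-fold, where 26.5% of the panel was called higher and 21.4% lower. The members then parted when the reference was changed. With the first housekeeping assay as the only reference *IL-10* was 413-fold higher, and with the second 44.9-fold. *TGF-β1* was 9.71-fold higher with the first, 2.95-fold with the panel median and 1.06-fold with the second (log2 0.08), so that its call was lost with the second assay alone. *IL-10* stood 5 of 98 genes, below *PRDX1* at 282-fold and above *IL-4* (the T helper 2 cytokine) at 125-fold, a lower bound because *IL-4* was at the cut off in the controls. *TGF-β1* stood 22 of 98, between *CXCL-12* (a chemokine of stromal cells) at 3.41-fold and *FGF-2* (a fibroblast growth factor) at 3.14-fold.

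In S100A8 + LLC lungs, *IL-10* was 88.6-fold higher than in HBSS + vehicle (log2 6.47) and *TGF-β1* was 3.58-fold higher (log2 1.84). Both were called, beside 22.4% of the panel. With the first housekeeping assay alone the values were 148-fold and 5.98-fold. With the second they were 53.1-fold and 2.14-fold. *IL-10* was 5 of 98, between *PRDX1* at 162-fold and *ARG1* (arginase 1) at 27.3-fold. *TGF-β1* was 16 of 98, between *IL-2* (a T cell growth factor) at 3.76-fold and *MKP1* (a MAP kinase phosphatase) at 3.34-fold. The *IL-2* Ct was near the cut off, at 36.89 in HBSS + vehicle and 35.97 in S100A8 + LLC. With *IL-4* at its bound, *IL-10* was the first and *TGF-β1* the seventh of the 18 cytokines in both groups with LLC. In HBSS + LLC that bound is close to the value of *IL-10*, and the order of *IL-10* and *IL-4* is not settled there.

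The members were thus past 2-fold against the controls in each treated group, and 14 of 97 genes (14.4%) shared this. *IL-10* was also past it with either housekeeping assay alone, as were 10 of 97 genes (10.3%), and *TGF-β1* was not. Both members had their lowest level in HBSS + vehicle with every reference tried. Of the 98 genes, 32 did so with the mean of both assays, 57 with the first by itself, 16 with the second and 21 with the panel's median. These comparisons share 1 control value per gene, so an error in the *IL-10* Ct of HBSS + vehicle would enter all 3 of its folds. In both groups with LLC the genes ranked above *IL-10* were *SOD1*, *TXN* (thioredoxin), *ICAM-1* (an adhesion molecule) and *PRDX1*. They too had their highest Ct in HBSS + vehicle, at 38, 37.41, 32.47 and 30.55 cycles, and *ICAM-1* was at 19.23 to 21.39 elsewhere. Whether these late control values reflect transcript levels or the measurement was not tested. If Ct was capped at 35 cycles, the *IL-10* folds were 46.9, 42.5 and 27.7.

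**Figure D2:**
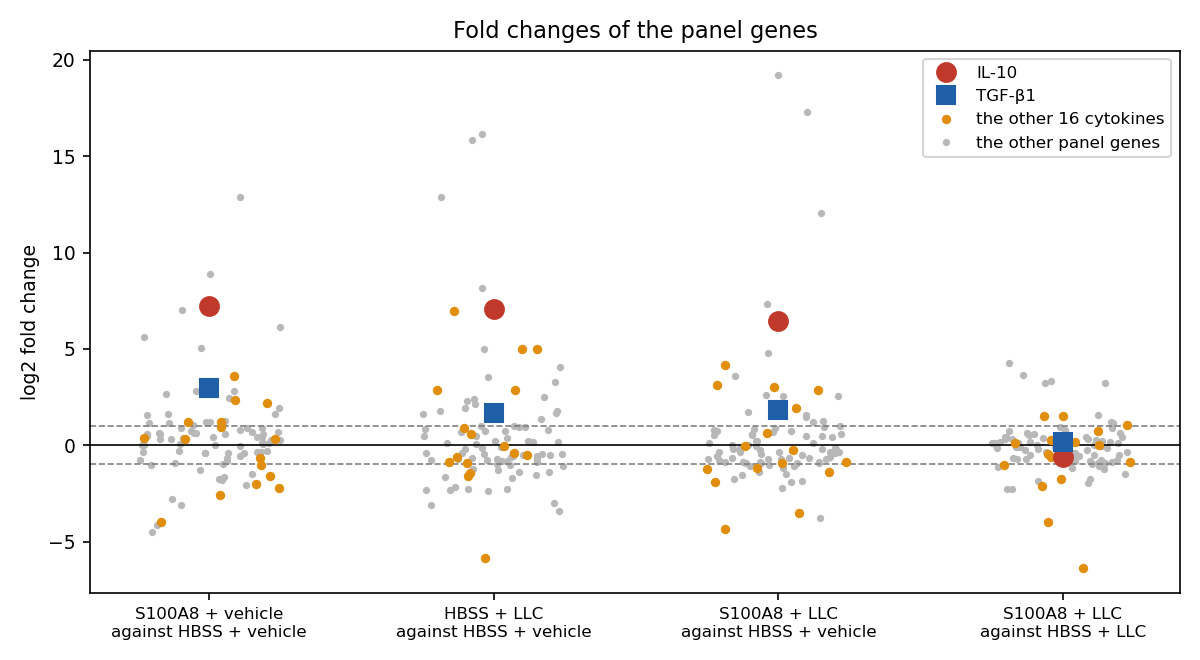
Log2 fold change (vertical axis) of each panel gene in 4 comparisons, with *IL-10* as a large circle, *TGF-β1* as a square, the other 16 cytokines in orange and the remaining genes in grey; dashed lines mark 2-fold, the sideways spread has no meaning, and genes at the cut off of 38 cycles in 1 group are drawn at their bound. *IL-10* lies at 7.23, 7.09 and 6.47 against HBSS + vehicle and at -0.62 in S100A8 + LLC against HBSS + LLC.

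In lungs with LLC cancers, neither member differed by 2-fold between S100A8 and HBSS. Relative to HBSS + LLC, *IL-10* was lower by 1.54-fold in S100A8 + LLC (log2 -0.62) and *TGF-β1* was 1.12-fold higher (log2 0.16). Neither was past 2-fold, where 11.2% of the panel was called higher and 15.3% lower. The directions did not hold under each reference. *IL-10* was at -1.48 with the first housekeeping assay alone, past 2-fold, and at 0.24 with the second. *TGF-β1* was at -0.70 with the first and at 1.02 with the second. Before any reference was taken off, both were later in S100A8 + LLC, *IL-10* by 1.95 cycles and *TGF-β1* by 1.17, and the housekeeping assays were later by 0.47 and 2.19. Of the 98 genes, *IL-10* stood 71 and *TGF-β1* 37 from the top.

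Set against S100A8 + vehicle, adding LLC to S100A8 went with lower levels of both. *TGF-β1* was 2.16-fold lower in S100A8 + LLC (log2 -1.11), past 2-fold like 29.6% of the panel on the lower side (12.2% were higher), and it was at -1.01 with the first housekeeping assay alone and -1.21 with the second. *IL-10* was 1.69-fold lower (log2 -0.76), not past 2-fold. This is the comparison in which the housekeeping assays moved least and together, by -0.35 and -0.55 cycles.

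The single treatments compared with each other also separated the members. *TGF-β1* was 2.41-fold lower in HBSS + LLC than in S100A8 + vehicle (log2 -1.27), where 31.6% of the panel was called lower and 23.5% higher, and it was at -0.31 with the first housekeeping assay alone and -2.23 with the second. *IL-10* differed by 1.10-fold (log2 -0.14), with a direction that turned to 0.82 under the first assay and read -1.10 under the second.

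**Figure D3:**
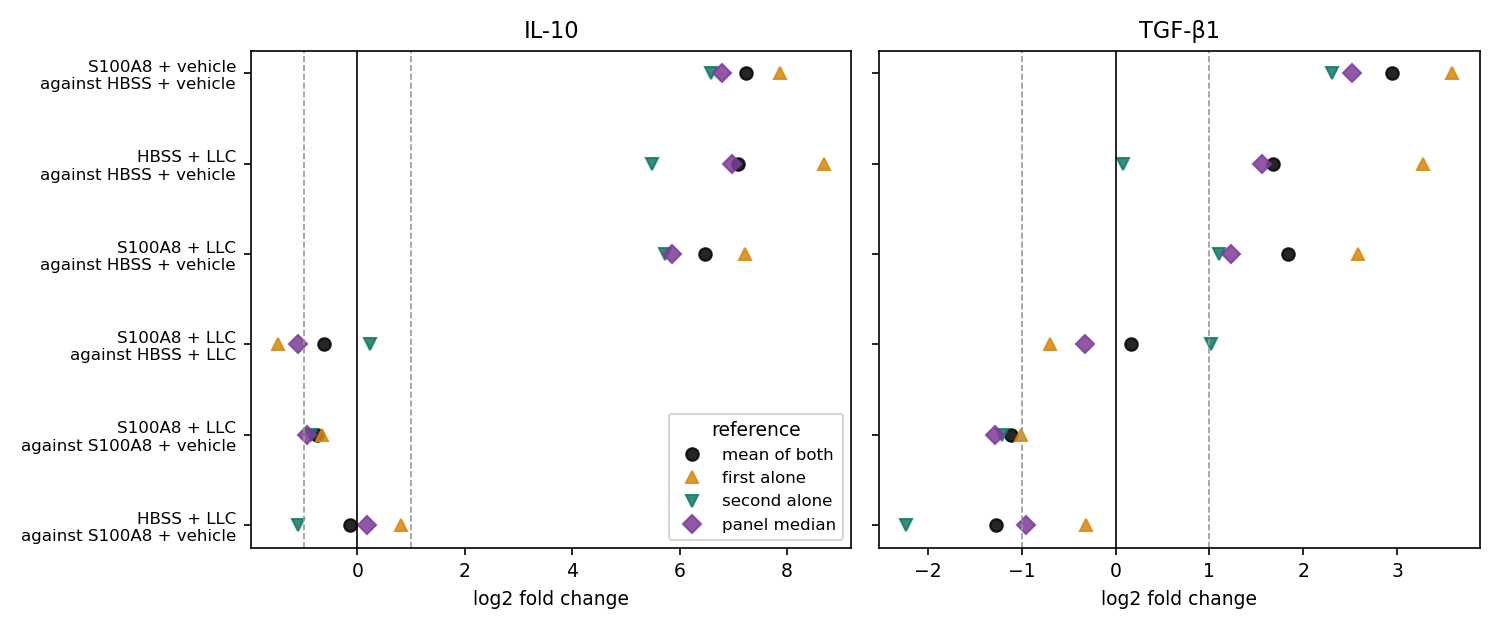
Log2 fold change of *IL-10* (left) and *TGF-β1* (right) in the 6 comparisons of groups, with the reference taken as the mean of both housekeeping assays, either by itself or the panel's median; dashed lines mark 2-fold, and the axes differ in scale. For *IL-10* the comparisons with HBSS + vehicle all lie far above 2-fold, and for *TGF-β1* the HBSS + LLC value falls to 0.08 with the second assay alone.

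The design crosses S100A8 with LLC, so the effect of S100A8 can be set side by side in lungs without and with cancer. For *IL-10* the S100A8 effect was 7.23 without LLC and -0.62 with it, a difference of -7.85 on the log2 scale. For *TGF-β1* it was 2.95 and 0.16, a difference of -2.79. The difference was under 0 for both members under each alternative, at -9.35 to -6.17 for *IL-10* and -4.29 to -1.29 for *TGF-β1*. The single effects of *IL-10* add up to 14.32, and the combined treatment gave 6.47. The single effects of *TGF-β1* add up to 4.63, and the combined treatment gave 1.84. A difference under 0 was common in the panel, in 61 of 97 genes with a median of -0.52. *IL-10* was second from the lowest, after *ICAM-1* at -13.71 and next to *PRDX1* at -7.84, and *TGF-β1* was place 17. These places take *IL-4* and *SOD1*, at the cut off in the controls, at their bounds of -6.16 and -5.54. Their true differences may lie lower, below that of *IL-10* too. The HBSS + vehicle value enters each such difference, and none could be tested.

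The ratio of the members needs no housekeeping assay, since any reference cancels. The Ct of *IL-10* minus that of *TGF-β1* was 12.51 cycles in HBSS + vehicle and 8.23, 7.10 and 7.88 cycles in the treated groups. *IL-10* relative to *TGF-β1* was thus 19.4-fold, 42.5-fold and 24.8-fold higher than in the controls. The ratio was highest in HBSS + LLC, 2.19-fold above S100A8 + vehicle. The combined treatment had a ratio 1.72-fold lower than LLC alone and 1.27-fold higher than S100A8 alone. Because different assays can amplify with different efficiency, the changes of the gap between groups can be read and its size in 1 group cannot.

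The genes whose Ct ran closest to each member were ranked by the root mean square difference of Ct after each gene's mean over the 4 groups was taken off, which likewise needs no reference. The points are only 4 and share their RNA. Nearest to *IL-10* were *PRDX1* at 0.536 cycles, *ARG1* at 0.806, *CDH1* (E-cadherin of epithelial junctions) at 1.20, *IL-18* at 1.30 and *IFN-γ* (the macrophage-activating cytokine) at 1.82, against a median of 3.10 over 97 genes. With Ct capped at 35, *ARG1* was the nearest at 0.192 cycles and *PRDX1* the fourth at 1.09. Nearest to *TGF-β1* were *GSTM* at 0.185, *CDKN1A* at 0.294, *MMP-9* (a gelatinase) and *MT2* (a metallothionein) at 0.375 each, and *CXCL-12* at 0.529, against a median of 1.21. No gene was in both sets. *TGF-β1* was place 7 from *IL-10*, but *IL-10* was place 85 from *TGF-β1*, at 2.11 cycles.

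**Figure D4:**
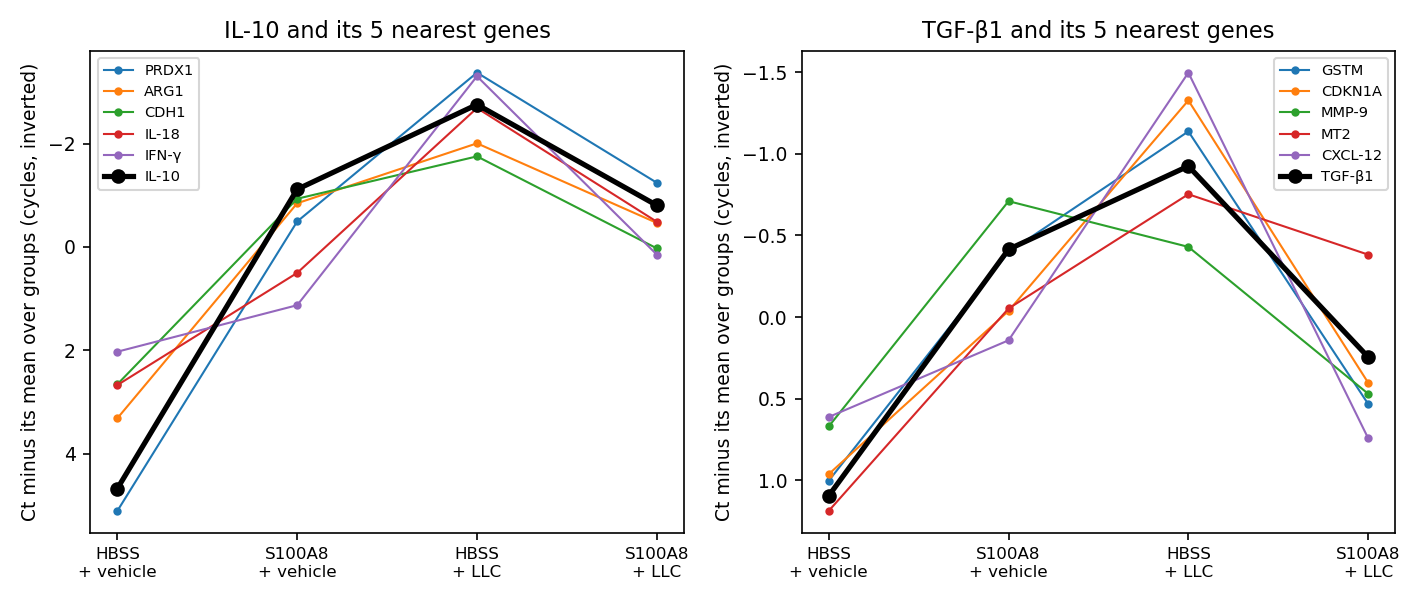
Ct of each member (thick black line) and its 5 nearest genes over the 4 groups, each minus its own mean over the groups (cycles, inverted so that higher means more template); lines join averages of separate groups and are not a time course. *IL-10* and *PRDX1* differ by 0.536 cycles and *TGF-β1* and *GSTM* by 0.185 cycles, both as root mean square and with Ct as deposited.

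Downstream of the IL-10 receptor, the panel held 4 genes. *ARG1*, the arginase of alternatively activated myeloid cells, was at 5.60, 4.98 and 4.77 on the log2 scale, and was past 2-fold in each with either housekeeping assay alone. *SOCS3*, the feedback inhibitor induced by STAT3, was at 1.21, -0.63 and -0.22. *STAT3*, the transducer, was at 0.58, -0.87 and -0.85. *HO-1*, heme oxygenase, was at 1.28, 0.79 and 0.72. The list thus had 3 of 4 genes called higher in S100A8 + vehicle and 1 of 4 in each group with LLC, beside 27.8%, 26.5% and 22.4% of the panel. Its medians were 1.245, 0.08 and 0.25 beside panel medians of 0.34, -0.185 and -0.22. In S100A8 + vehicle the genes called higher were 1 of 4 with the second housekeeping assay or the panel median as reference and 4 of 4 with the first, as 16, 19 and 48 genes of the panel were. *ARG1* was the one member of the list near the size of *IL-10*.

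The mediators that IL-10 is known to restrain were 17 assays, of which *COX-2* and *PTGS2* name the same gene. With S100A8 alone 2 were called higher and 4 lower, with LLC alone 3 and 4, and with both 1 and 6. The panel was called higher in 27.8%, 26.5% and 22.4% and lower in 17.5%, 21.4% and 18.4%. Their medians of 0.30, -0.63 and -0.78 compare with 0.34, -0.185 and -0.22 over the panel. *IL-12β*, which drives T helper 1 responses, was at -2.59, 2.86 and -3.52. *IFN-γ* stood at 2.34, 4.99 and 2.87, the one of these genes higher than control throughout. The neutrophil chemokine *CXCL-1* was at -0.32, -1.38 and -1.90, the inflammatory cytokine *IL-1β* at -0.65, -0.86 and -1.89, and *IL-23*, which sustains T helper 17 cells, at -1.05, -1.60 and -0.86. In HBSS + LLC the first housekeeping assay alone put *CXCL-1* at 0.22 and *IL-1β* at 0.74. In S100A8 + LLC against HBSS + LLC, 1 was called higher and 5 lower, *IL-12β* at -6.38 and *IFN-γ* at -2.12 among the latter, while *IL-10* itself was at -0.62 and 11.2% of the panel was called higher and 15.3% lower. These counts moved with the reference. The first housekeeping assay by itself gave 7 higher and 2 lower in S100A8 + vehicle and 8 and 0 in HBSS + LLC, where the second gave 1 and 5 and then 2 and 13. Between the groups with LLC the first housekeeping assay alone gave 0 higher and 10 lower and the second 3 and 2, beside 5 and 44 and then 39 and 6 of all 98 genes. In S100A8 + LLC against HBSS + vehicle, the first housekeeping assay alone gave 2 higher and 3 lower and the second 1 and 15, beside 37 and 8 and then 16 and 47 of all 98 genes.

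For the TGF-β pathway the panel held *SMAD4* and *CDKN1A*. *SMAD4* was at -0.39, -0.74 and -0.41 and was not called, but with the second housekeeping assay alone it was at -1.03, -2.34 and -1.15, called lower in each group. *CDKN1A* was at 2.44, 1.95 and 1.55, called higher in each group, and was the second nearest pattern to *TGF-β1*. With the second assay alone *CDKN1A* was at 1.8, 0.35 and 0.81 and lost its call in both groups with LLC, whereas *TGF-β1* lost only that in HBSS + LLC.

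Genes of matrix turnover and mesenchymal transition, on which TGF-β acts in many tissues, were 8. Of these, 3 were called higher and 2 lower with S100A8 alone, 3 and 3 with LLC alone, and 2 and 1 with both, beside the panel's 27.8%, 26.5% and 22.4% higher and 17.5%, 21.4% and 18.4% lower. The medians were 0.235, 0.095 and 0.605. *CDH1*, which TGF-β represses in epithelial cells that change to a mesenchymal form, was at 5.03, 4.07 and 3.62. *MMP-9* was at 2.82, 0.76 and 1.19 and the angiogenic factor *VEGFα* at 1.14, 2.32 and 0.48. The collagen *COL10A1* was at -2.04, -1.02 and -1.10, and *COL11A1* at -1.80, -0.57 and -0.53, and both directions in HBSS + LLC turned with the first housekeeping assay alone, *COL11A1* to 1.03. *S100A4*, a marker of fibroblasts and mesenchymal cells, was at 0.13, -2.30 and 0.92, and it was higher by 3.22 in S100A8 + LLC than in HBSS + LLC. With the first and the second housekeeping assay alone, the medians in HBSS + LLC were 1.695 and -1.505.

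**Figure D5:**
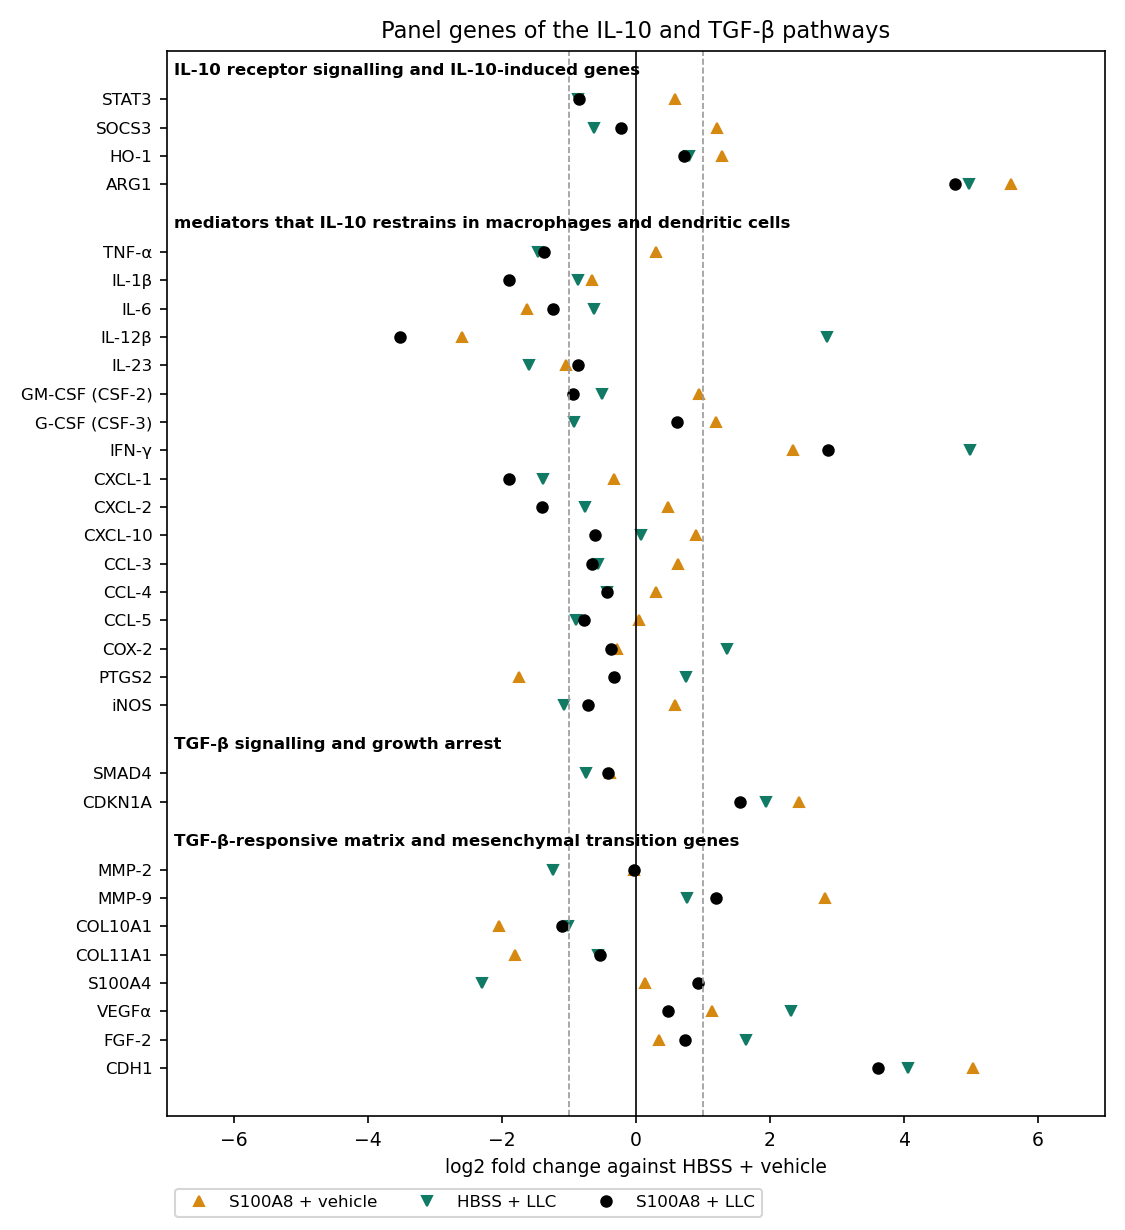
Log2 fold change against HBSS + vehicle (horizontal axis) of the panel genes listed for the IL-10 and TGF-β pathways, with 1 point for each of S100A8 + vehicle, HBSS + LLC and S100A8 + LLC; dashed lines mark 2-fold and *COX-2* and *PTGS2* are assays of the same gene. *ARG1*, *CDKN1A*, *CDH1* and *IFN-γ* lie right of 2-fold in all 3 groups.

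The arginine and tryptophan enzymes through which myeloid cells hold T cells back were 5 genes. Called higher were 1, 3 and 2 of them beside 27.8%, 26.5% and 22.4% of the panel, with medians of 0.58, 2.51 and 0.53, and *iNOS* (nitric oxide synthase, at 0.58, -1.08 and -0.72) was called lower in HBSS + LLC, where the first housekeeping assay alone put it at 0.52. *IDO*, which degrades tryptophan, was at 0.80, 2.51 and 0.53, *CAT2*, an arginine transporter, at 0.40, 3.27 and 1.01, and *ARG2*, the mitochondrial arginase, at 0.44, 0.19 and 0.41. In S100A8 + vehicle *ARG1* was the one gene of this list past 2-fold, and with the first housekeeping assay alone all 5 were, beside 48 of 97 panel genes. With the second alone, HBSS + LLC had 2 called higher and 2 lower and S100A8 + LLC had 1 and 1. Over the 18 cytokines, 7 were called higher in each group against HBSS + vehicle and 6, 3 and 6 lower, beside 17.5%, 21.4% and 18.4% of the panel lower, with medians of 0.35, 0.27 and -0.155. In HBSS + LLC these counts were 12 higher and 1 lower when the first assay was the reference, or 6 and 10 under the second. Those past 2-fold higher throughout beside the members were *IL-4*, *IFN-γ* and *IL-18*. The one past 2-fold lower throughout was *IL-13*, a T helper 2 cytokine, at -2.20, -5.88 and -4.36.

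Markers of cell types were read beside the members because the cytokines have many sources. The myeloid genes *S100A8* (1.20, 0.15 and 0.81), *S100A9* (1.06, -0.38 and -0.93) and *NOX2* (0.67, 0.70 and -0.25) had 2 of 3 called higher in S100A8 + vehicle and 0 in the groups with LLC, beside 27.8%, 26.5% and 22.4% of the panel. With the second housekeeping assay alone 0 were called higher in any group, and with the first 3, 3 and 1, as the panel had 16, 14 and 16 and then 48, 61 and 37. *LCK* of T cells was at -1.63, -2.37 and -1.86, and with the first housekeeping assay alone at -0.99, -0.77 and -1.12. *KIT* of mast cells was at 0.73, 0.50 and -0.74 and *MKI67* of dividing cells at -0.39, -0.46 and -0.21. The 5 epithelial and caveolar assays had medians of 0.87, -0.39 and -0.22, with *CDH1* far above the other 4, which lay between -0.87 and 1.47. The basal keratin *KRT5* was at -3.10, -3.11 and -2.22 and *KRT14* at 0.01, -1.68 and 2.61. None of these markers was as far above the controls as *IL-10* in any of the 3 groups. Some were further above them than *TGF-β1*, *CDH1* in all 3 groups and *KRT14* in S100A8 + LLC. The part of cell composition in the members' values was not tested.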

How the data were processed

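Total lung RNA (1.5 µg) was reverse-transcribed and amplified by RT-qPCR with a cut off of 38 cycles, and the authors deposited 1 mean Ct per group and assay, not normalised, for 100 numbered assays. This unit, mean cycles, carries no depth, SD or n, so no precision can be stated. A deposited file of the authors' fold changes was not used. No deposited value column was left without a group.

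Genes and groups were identified by matching fold changes recomputed from Ct, up to 1 constant per group, with the values printed for named genes in the paper. All 98 genes matched 1 assay each within 0.02 on the log2 scale (largest error 0.0095, nearest second candidate 0.0879). Of 24 possible column orders, 1 matched every gene and the next best matched 5. These printed values served for identification only. The 2 unmatched assays were read as the housekeeping genes, β-actin and β2M.

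A fold change was the base 2 raised to the drop in Ct, less the drop of the reference, from one group to the other. A group at 38 cycles gave a bound. The members and gene lists were chosen with earlier results of these data known. Apart from the members, genes named were first those of the pathway, cytokine and marker lists that were past 2-fold one way in all 3 comparisons with HBSS + vehicle. Others stood at the ends of their list by mean log2 fold change over these 3 comparisons. The rest were all genes of lists of 5 or fewer, the 5 nearest patterns, the neighbours in rank and the cell markers. *IL-12β*, *IL-1β*, *S100A4*, *VEGFα*, *ICAM-1* and *TXN* fall outside this rule and were named after their values were seen. The study's own list for the expansion and activation of myeloid-derived suppressor cells held 15 assays, both members and *COX-2* and *PTGS2* among them. It had 6, 8 and 6 assays called higher and 5, 3 and 4 lower in the order S100A8 alone, LLC alone and both. Both members are in each of the higher counts. Of the panel, 27.8%, 26.5% and 22.4% were higher and 17.5%, 21.4% and 18.4% lower.

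Alternatives were either housekeeping assay alone, the panel median as reference, Ct capped at 35, bases of 1.9 and 1.8 per cycle, a 3-fold threshold, and only genes with Ct of at most 30 or 35. Scripts in Python 3.11.15 (with numpy 2.4.6 and, for figures, matplotlib 3.10.9) were first tested on simulated data. Promoter windows were those of RefSeq for GRCm38.p6.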

Additional observations from a re-analysis of the deposited data

Results flagged for a closer look

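The effect of S100A8 on *IL-10* had opposite directions in the lungs without and with LLC cancers. It was 7.23 (log2) against HBSS + vehicle and -0.62 against HBSS + LLC, a difference of -7.85 that was not tested, as there was 1 averaged value per group. With the second housekeeping assay alone the effect in lungs with LLC cancers was 0.24, so the opposite direction did not hold there.

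The effect of LLC on *IL-10* likewise turned, from 7.09 in mice that inhaled HBSS to -0.76 in mice that inhaled S100A8. Arithmetic gives the same difference of -7.85, which was not tested.

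The effect of LLC on *TGF-β1* was 1.68 with HBSS and -1.11 with S100A8, a difference of -2.79 that was not tested. The first of these values was 0.08 with the second housekeeping assay alone.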

How the results depend on the processing

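Of 111 values of the members under the alternatives, 96 kept their direction and their side of the threshold, 6 lost a call, 4 gained one and 5 changed direction. All 5 changes of direction came with another reference. Many of the 111 could not move. The Ct filters keep the main value and its call, and the 3-fold threshold keeps the value. The cap alters only *IL-10* values that use HBSS + vehicle. *IL-10* against HBSS + vehicle kept direction and side in 21 of 21, where comparisons that failed a Ct filter were not counted. In S100A8 + LLC against HBSS + LLC, *IL-10* was at -1.48, 0.24 and -1.105 on the log2 scale with the first housekeeping assay, the second and the panel median as reference, and *TGF-β1* at -0.70, 1.02 and -0.325. In HBSS + LLC against S100A8 + vehicle the values were 0.82, -1.10 and 0.175 for *IL-10*, and for *TGF-β1* -0.31 with the first assay and -0.955 with the panel median. *TGF-β1* in HBSS + LLC against HBSS + vehicle was at 0.08 with the second assay. A base of 1.8 took *TGF-β1* in S100A8 + LLC against S100A8 + vehicle to -0.94, and a 3-fold threshold ended its call there (-1.11) and in HBSS + LLC against S100A8 + vehicle (-1.27).

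Counts of genes called over the panel, the cytokines and the mediators that IL-10 restrains, against HBSS + vehicle, stayed within 1.5 times in 57 of 90 cases. With at most 35 cycles allowed, *IL-10* had no comparison with HBSS + vehicle, and with at most 30 none at all. The 5 genes nearest to *IL-10* were the same with the mean absolute difference and with Ct capped at 35, and 4 of 5 and 5 of 5 were for *TGF-β1*. No paired analysis was possible because each group has 1 averaged value. For the same reason no mouse was left out.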
